A study of Mus musculus with 9 samples.

Results

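Glycolysis and the pentose phosphate pathway were followed through 36 genes, chosen by symbol, that take glucose from uptake to pyruvate and lactate, through the pentose phosphate branch and into glycogen. All 36 were among the 22376 gene symbols in the data, and all passed the filter on low values that left 13741 genes for testing. The libraries came from primary macrophages grown out of bone marrow of wild-type C57Bl/6 mice for 1 week with 10 ng/ml M-CSF, the growth factor of the macrophage lineage, then washed to remove it and plated at 50000 cells for 48 h. There were 3 wells given PD-L1 antibody at 100 µg/ml (libraries 1 to 3), 3 given an isotype-matched antibody of irrelevant specificity at the same dose (libraries 4 to 6) and 3 untreated wells (libraries 7 to 9). The labels do not say whether wells came from separate mice or cultures, and the p-values below reflect the spread of these samples alone, which may be technical.

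Glycolysis turns glucose into pyruvate in the cytosol. Hexokinase and phosphofructokinase commit the sugar at the cost of ATP, and the later enzymes, from glyceraldehyde-3-phosphate dehydrogenase to pyruvate kinase, return ATP and NADH. Pyruvate then enters mitochondria through pyruvate dehydrogenase or becomes lactate, which leaves by monocarboxylate carriers. The pentose phosphate pathway branches off at glucose-6-phosphate: its oxidative arm makes NADPH, which phagocytes use for the oxidative burst and for reducing glutathione, and its non-oxidative arm makes ribose-5-phosphate and passes carbon back to glycolysis. Macrophages activated by microbial products are known for high glucose uptake and lactate release.

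Levels are given in CPM (exonic read equivalents, scaled to a library total of 1e+06) and are set against other genes only as CPM per kb of exonic length. Fold changes were taken between values of log2(CPM + 1), so changes of low genes are understated, with SE from limma's moderated test over all 9 libraries and Benjamini-Hochberg adjusted p over all genes tested. A gene was called at an adjusted p under 0.05. Exonic read equivalents per library ran from 23554320 (untreated 7) to 40116467 (untreated 9). The lowest value of any member was 3.76 CPM (Ldhb in PD-L1 antibody 2). The 8 macrophage markers, a sum carried mostly by Lyz2, came to 22120 to 26470 CPM with the PD-L1 antibody, 19370 to 22980 with the isotype antibody and 17360 to 22770 in untreated wells. Singly, Adgre1, Fcgr1, Itgam and Cd14 were called higher than with the isotype antibody (log2 fold changes 1.28, 1.45, 1.15 and 1.71), Cd68 lower (-0.58), and Csf1r, Mertk and Lyz2 were not called. Neutrophil markers (10 of 11 tested) summed to 361 to 507, 685 to 1282 and 517 to 715 CPM in those groups. Against the isotype antibody Ltf, Ngp, Camp, Mpo and Retnlg were called lower (log2 fold changes -2.057, -1.715, -1.25, -1.14 and -0.915). Elane, Prtn3, S100a8, S100a9 and Cxcr2 were not called, and the defining gene Ly6g stayed at 0.32 CPM or less. T and NK cell markers (3 of 7 tested) summed to 2.49 to 5.29 CPM with the PD-L1 antibody, 4.88 to 13.1 with the isotype antibody and 10.7 to 21.7 in untreated wells. Cd4 reached 17.4 CPM (untreated 8) and was called lower than with the isotype antibody (-1.17). Cd3e, at 0.82 CPM or less, and Cd8a were not called. Stromal markers (5 of 5) summed to 62.1 to 80.3, 36.4 to 52.6 and 57.2 to 84.98 CPM in the same order. Of these Col3a1, Pdgfrb and Pecam1 were called higher than with the isotype antibody (1.55, 0.74 and 0.79), and Col1a1 and Col1a2 were not called. Dendritic cell markers (7 of 7) summed to 402 to 461, 319 to 536 and 271 to 519 CPM, mostly Ccr7; against the isotype antibody Flt3, Clec9a, Siglech and Cd209a were called lower and Xcr1 higher, and Xcr1, Clec9a and Cd209a stayed at 3.52 CPM or less. Erythroid markers (2 of 4) summed to 1.05 to 1.89, 3.04 to 7.13 and 5.59 to 7.42 CPM, with Hba-a1 called lower (-1.20). Fewer cells of a type and less RNA per cell cannot be told apart in such bulk samples, and the part of these markers in the results below was not tested. The names of the deposited tables put PD-L1 antibody 2 in lane 4 and the other 8 libraries in lane 1, so values without that library are also values within 1 lane.

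The comparison of the antibodies asks what the PD-L1 antibody changed beyond the presence of antibody protein. With the PD-L1 antibody most members of glucose uptake and glycolysis rose, as did the lactate exporter Slc16a3 and both glycogen members, Gys1 and Gbe1. The carrier Slc16a1 was not called against the isotype antibody, and most of the 6 pentose phosphate members did not rise. Of the 36 members 21 were called higher and 5 lower than with the isotype antibody, where 18.2% of all tested genes were called higher and 18.2% lower (36.4% in all). The median log2 fold change of the members was 0.71, beside -0.02 over all genes. Against untreated wells 25 members were called higher and 5 lower, where 22% and 20.5% of all genes were (42.4% in all), with a median of 0.76 beside -0.01. The same 21 genes were higher against either set of wells, and Slc2a3, Pfkfb4, Pdk2 and Pgls were lower against either; both comparisons use the same PD-L1 antibody libraries.

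The split followed the steps. Of the 16 glycolytic enzymes, hexokinase to pyruvate kinase, 12 were called higher with the PD-L1 antibody than with the isotype antibody and none lower, with a median log2 fold change of 1.27. Of the 6 pentose phosphate enzymes among the members 1 was called higher (Pgd) and 2 lower (Pgls and Taldo1), with a median of -0.05. Against untreated wells the counts were 13 higher and 0 lower of 16 (median 1.40), and 2 higher and 1 lower of 6 (median 0.04). The scaling matters for the lower calls. With totals in place of TMM scaling the median of all genes moved to -0.16, and 27.4% of all calls were higher rather than 49.9%. Under totals 20 members were higher and 9 lower than with the isotype antibody (Pfkm, Eno2, Ldhb and Tkt added). Of all 13741 tested genes 1565 were then higher and 4143 lower, a larger share lower than among the members. Under totals 12 glycolytic enzymes were higher and 2 lower (Pfkm and Eno2), and 1 pentose phosphate enzyme was higher and 3 lower (Pgls, Taldo1 and Tkt). Leaving out PD-L1 antibody 2 or isotype antibody 5 took the 5 lower members to 2, Slc2a3 and Pdk2.

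**Figure D1:**
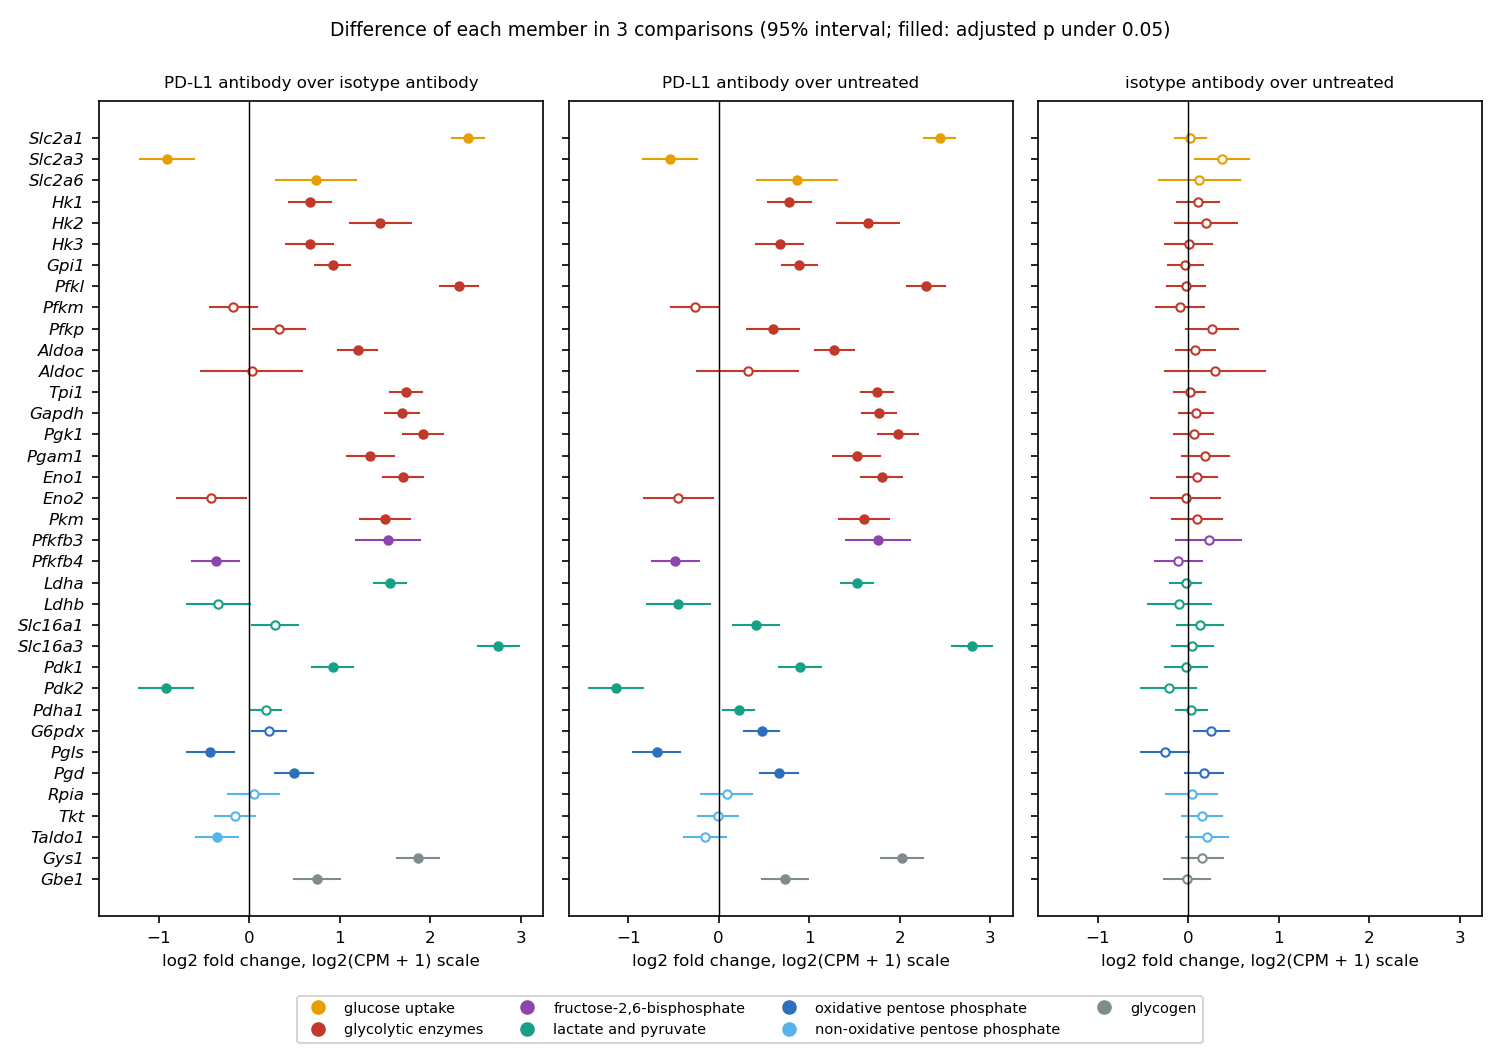
Log2 fold change of each of the 36 members (rows, in pathway order, coloured by step) with its 95% interval in 3 comparisons, from left to right PD-L1 antibody over isotype antibody, PD-L1 antibody over untreated, and isotype antibody over untreated; filled points had an adjusted p under 0.05. Glycolytic enzymes lie mostly right of 0 in the first 2 panels, the 6 pentose phosphate enzymes lie between -0.69 and 0.67, and no point of the last panel is filled.

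The uptake step changed its make-up. Slc2a1, which encodes the facilitative glucose transporter GLUT1, had 202.5, 190.9 and 215.5 CPM with the PD-L1 antibody, against 35.2, 37.3 and 39.2 CPM with the isotype antibody and 38.2, 36.8 and 34.6 CPM in untreated wells. The PD-L1 antibody libraries lay far above all others, whose 2 ranges overlapped. The rise over the isotype antibody was 2.42 on the log2 scale (SE 0.08, adjusted p = 7.82e-09 in limma), or 5.45-fold between mean CPM. The listed transcript, NM_011400, spans chr4:119108745-119137329 on the + strand of GRCm38. Slc2a3, which encodes the high-affinity transporter GLUT3, went the other way: it had 14.0, 13.6 and 12.2 CPM with the PD-L1 antibody, against 29.98, 24.28 and 23.58 CPM with the isotype antibody and 24.0, 17.8 and 17.8 CPM in untreated wells. All PD-L1 antibody libraries were below all others, with a log2 fold change of -0.91 (SE 0.14, adjusted p = 0.000353 in limma) against the isotype antibody and -0.54 against untreated wells. Slc2a6 encodes GLUT6, a family member placed at lysosomes. It had 178.1, 165.3 and 222.8 CPM with the PD-L1 antibody, against 94.2, 125.9 and 117.6 CPM with the isotype antibody and 148.0, 85.01 and 85.12 CPM in untreated wells, with untreated 7 apart from the other untreated libraries. Its rise of 0.74 (SE 0.20, adjusted p = 0.0144 in limma) over the isotype antibody was lost without PD-L1 antibody 3 (adjusted p = 0.0616) or isotype antibody 4 (0.058), with totals in place of TMM scaling (0.0555) and with no filter on low genes (0.0603).

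Of the hexokinases, which trap glucose as glucose-6-phosphate, all 3 rose and Hk2 rose most. Hk2, the inducible form that binds mitochondria, had 197.1, 191.0 and 219.5 CPM with the PD-L1 antibody, against 74.6, 68.8 and 77.0 CPM with the isotype antibody and 86.4, 51.2 and 58.6 CPM in untreated wells. Its log2 fold change was 1.45 (SE 0.16) over the isotype antibody and 1.65 over untreated wells. Hk1 and Hk3 rose by 0.67 each over the isotype antibody (adjusted p = 0.00056 and 0.00106 in limma). Hk3, a form found in myeloid cells, nevertheless made up most hexokinase transcript in every library, 65.4 to 68.6% of the summed CPM per kb with the PD-L1 antibody, 70.8 to 72.7% with the isotype antibody and 73.0 to 74.2% in untreated wells. Gpi1, glucose-6-phosphate isomerase, the enzyme at the fork between both pathways, rose by 0.92 (SE 0.09) and 0.89 over the isotype antibody and untreated wells.

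The phosphofructokinase genes moved unequally. Pfkl, the liver-type subunit, had 191.3, 176.6 and 210.9 CPM with the PD-L1 antibody, against 40.0, 39.5 and 34.5 CPM with the isotype antibody and 35.8, 42.0 and 38.2 CPM in untreated wells. The groups did not come near each other, and the log2 fold change was 2.31 (SE 0.10, adjusted p = 3.81e-08 in limma). Pfkp, the platelet-type subunit, had 90.7, 83.4 and 88.2 CPM with the PD-L1 antibody, against 64.2, 67.1 and 77.2 CPM with the isotype antibody and 72.71, 50.01 and 51.92 CPM in untreated wells. It passed against untreated wells (log2 fold change 0.60, adjusted p = 0.00371 in limma) but not against the isotype antibody (0.33, 95% interval 0.04 to 0.62, adjusted p = 0.0698), where it passed without untreated 7 in the fit (adjusted p = 0.00471). Pfkm, the muscle-type subunit, had 7.81 to 10.4 CPM with the PD-L1 antibody, 9.50 to 11.04 with the isotype antibody and 10.6 to 11.6 in untreated wells and was not called. Pfkl therefore made up 66.4 to 69.4% of the summed phosphofructokinase transcript per kb with the PD-L1 antibody, against 28.9 to 35.9% with the isotype antibody and 30.6 to 40.8% in untreated wells.

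Pfkfb3 and Pfkfb4 encode enzymes that make and remove fructose-2,6-bisphosphate, the strongest known activator of phosphofructokinase, and they moved in opposite directions. Pfkfb3, the form with the highest kinase over phosphatase activity, had 590.1, 638.0 and 564.8 CPM with the PD-L1 antibody, against 252.9, 195.8 and 174.8 CPM with the isotype antibody and 225.8, 152.8 and 156.5 CPM in untreated wells. No library of another group reached the PD-L1 antibody range, and the rise over the isotype antibody was 1.54 (SE 0.16, adjusted p = 2.99e-05 in limma). Pfkfb4 had 42.0, 40.1 and 42.7 CPM with the PD-L1 antibody, against 53.9, 60.5 and 48.6 CPM with the isotype antibody and 49.4, 59.1 and 67.9 CPM in untreated wells. All PD-L1 antibody libraries were lower than all others. Its log2 fold change of -0.37 (SE 0.12, adjusted p = 0.0275 in limma) against the isotype antibody did not pass without any 1 of PD-L1 antibody 1, 2 or 3 or isotype antibody 4 or 5 (adjusted p = 0.067, 0.0887, 0.0545, 0.0631 and 0.116), and against untreated wells it was -0.48 (adjusted p = 0.00694).

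Every further enzyme from aldolase to pyruvate kinase had a main form that rose, and the minor forms among the members, Aldoc and Eno2, were not called. Aldoa, aldolase A, had 1855, 1651 and 1863 CPM with the PD-L1 antibody, against 773.0, 780.2 and 781.5 CPM with the isotype antibody and 819.5, 707.9 and 686.4 CPM in untreated wells (log2 fold change 1.20 over the isotype antibody, SE 0.10). Tpi1, triosephosphate isomerase, had 783.5, 703.8 and 716.1 CPM with the PD-L1 antibody, against 226.4, 208.6 and 225.5 CPM with the isotype antibody and 228.6, 209.2 and 215.2 CPM in untreated wells, a rise of 1.73 (SE 0.08). In both genes the isotype antibody and untreated ranges overlapped far below the PD-L1 antibody range. Gapdh rose by 1.69 (SE 0.09), Pgk1, phosphoglycerate kinase, by 1.92 (SE 0.10), Pgam1, phosphoglycerate mutase, by 1.34 (SE 0.12) and Eno1, the general enolase, by 1.70 (SE 0.10), each with an adjusted p in limma of 8.52e-06 or less. Gapdh, often taken as a loading control, had 651.6, 603.4 and 649.7 CPM with the PD-L1 antibody, against 197.1, 180.0 and 213.6 CPM with the isotype antibody and 198.1, 183.0 and 175.5 CPM in untreated wells, so it was 3.22-fold higher than with the isotype antibody in mean CPM.

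Both minor forms were low. Aldoc, aldolase C, had 18.6, 12.1 and 24.6 CPM with the PD-L1 antibody, against 12.5, 21.8 and 19.3 CPM with the isotype antibody and 17.8, 12.4 and 12.4 CPM in untreated wells, with a log2 fold change of 0.03 whose 95% interval of -0.53 to 0.58 leaves room for change either way. Eno2, the neuronal enolase, had 5.67, 6.25 and 4.50 CPM with the PD-L1 antibody, against 6.87, 7.74 and 8.22 CPM with the isotype antibody and 9.26, 5.74 and 8.69 CPM in untreated wells. Its log2 fold change of -0.42 did not pass (adjusted p = 0.0797 in limma), though it did without untreated 7 or 8 in the fit (adjusted p = 0.0489 and 0.0361). Aldoa held at least 98.4% of the Aldoa and Aldoc sum per kb, and Eno1 at least 98.0% of the Eno1 and Eno2 sum, in every library; Eno3, muscle enolase, is not in that sum and averaged 2.69 CPM per kb with the PD-L1 antibody, against 5.53 with the isotype antibody and 6.20 for untreated wells.

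Counts of 4 of these enzymes hold reads that could belong to copies elsewhere in the genome. In GENCODE M21 transcripts 78.0% of the 100-base stretches of Gapdh, 67.0% of Pgk1, 59.0% of Eno1 and 39.7% of Pgam1 also occur in a transcript of another gene, mostly processed copies. Eno1b, a copy that shares much of the Eno1 sequence, was listed at 865 to 1004 CPM with the PD-L1 antibody, 262 to 300.5 with the isotype antibody and 245 to 300.4 in untreated wells, nearly the level of Eno1 in each library, so reads of the pair cannot be told apart here. Gm12070, a Gapdh copy, was listed at 667 to 834 CPM with the PD-L1 antibody, 222 to 249.5 with the isotype antibody and 204 to 245 in untreated wells, above Gapdh itself in each library, and the same holds for that pair, so the Gapdh values above may include reads of the copy and miss reads given to it. The other members that share 10% or more of their exonic bases with a neighbour were Gpi1, Pkm, Pdha1 and G6pdx, and the sources used here do not say whether counting used the strand.

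Pkm had the highest level per kb of all members in every group. It had 4427, 4035 and 4593 CPM with the PD-L1 antibody, against 1451, 1538 and 1615 CPM with the isotype antibody and 1679, 1325 and 1314 CPM in untreated wells, a rise of 1.5 (SE 0.13, adjusted p = 5.81e-06 in limma) over the isotype antibody. The gene makes pyruvate kinase M1 or M2 by use of 1 of 2 exons of equal length, and M2 is the form known from proliferating and activated cells. The files list 1 transcript of each kind (NM_011099 for M2, NM_001253883 for M1) with the same ends and the same exonic length of 2432 bases, so the difference between their mean depths comes from that exon pair. The exons, given from GENCODE M21 transcripts on GRCm38, are 167 bases long, are exon 9 of their transcripts and differ at 64 bases (61.7% identical); capitals mark the bases that differ, which is what lets reads be placed on 1 of them.
M2 exon (chr9:59675568-59675734, + strand): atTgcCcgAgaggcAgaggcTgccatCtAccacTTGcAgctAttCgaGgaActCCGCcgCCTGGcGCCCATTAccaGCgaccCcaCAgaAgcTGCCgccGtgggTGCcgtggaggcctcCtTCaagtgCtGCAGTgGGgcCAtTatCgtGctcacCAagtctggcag
M1 exon (chr9:59675029-59675195, + strand): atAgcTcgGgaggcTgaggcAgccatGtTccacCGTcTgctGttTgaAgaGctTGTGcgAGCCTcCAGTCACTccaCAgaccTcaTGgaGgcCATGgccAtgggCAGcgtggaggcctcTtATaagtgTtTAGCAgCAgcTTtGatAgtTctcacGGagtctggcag
The M2 exon was the deeper of the pair in all 9 libraries. Its depth exceeded that of the M1 exon by 41.5, 39.9 and 48.2% of the mean depth of the M2 transcript with the PD-L1 antibody, against 49.0, 60.2 and 50.1% with the isotype antibody and 49.8, 56.3 and 54.9% in untreated wells. The PD-L1 antibody range lay just below the others, 43.2 ± 4.42% against 53.1 ± 6.17% and 53.7 ± 3.42% (SD, n = 3 each; exact two-sided permutation test, p = 0.10 against either group, the smallest 3 against 3 libraries can give). The depth of each exon alone is not in the files, so no M2 share follows from these values.

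**Figure D2:**
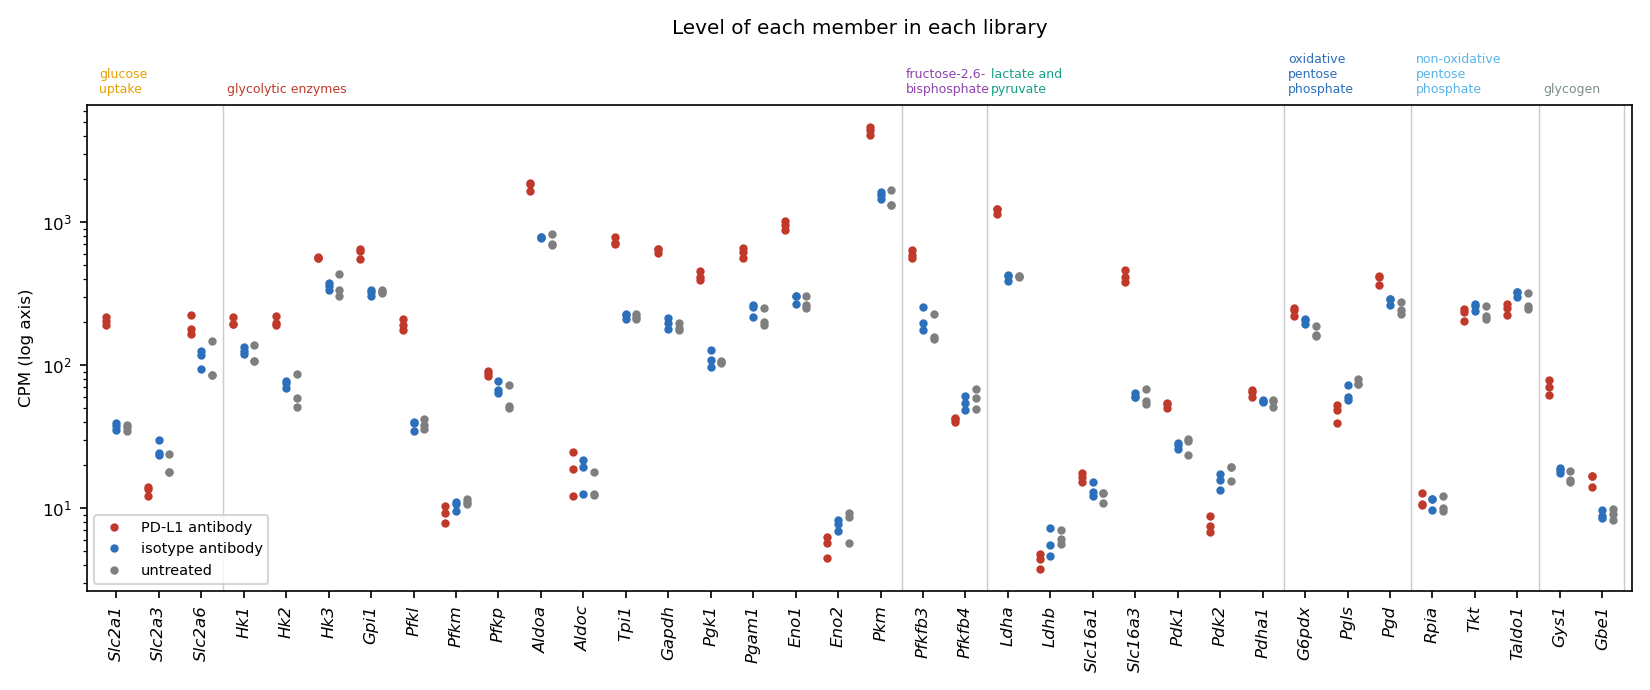
CPM of each of the 36 members in each library on a log axis, with the genes in pathway order and, within a gene, 3 PD-L1 antibody, 3 isotype antibody and 3 untreated libraries from left to right. Slc2a1, Pfkl, Slc16a3 and Gys1 show the widest gaps between the PD-L1 antibody and the other libraries, and the points of G6pdx, Pgd, Rpia, Tkt and Taldo1 lie close together.

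Downstream of pyruvate, Ldha, Slc16a3 and Pdk1 rose, Pdk2 fell, and Ldhb, Slc16a1 and Pdha1 were not called against the isotype antibody. Slc16a3, which encodes the lactate exporter MCT4, had the largest rise of all members: 413.3, 380.6 and 460.8 CPM with the PD-L1 antibody, against 59.7, 63.7 and 59.7 CPM with the isotype antibody and 67.8, 56.3 and 53.5 CPM in untreated wells. Nothing in the other groups came near the PD-L1 antibody libraries, and the log2 fold change was 2.75 (SE 0.10, adjusted p = 1.9e-08 in limma), or 6.85-fold between mean CPM. Its listed transcript, NM_001038653, spans chr11:120949067-120959000 on the + strand of GRCm38. Slc16a1, which encodes the carrier MCT1, had 17.6, 15.2 and 16.6 CPM with the PD-L1 antibody, against 12.1, 12.9 and 15.2 CPM with the isotype antibody and 12.8, 10.9 and 12.7 CPM in untreated wells. It did not pass against the isotype antibody (0.28, adjusted p = 0.0752 in limma), but did without isotype antibody 6 (adjusted p = 0.0408). It passed against untreated wells (0.41, adjusted p = 0.0134), but not without PD-L1 antibody 1 (adjusted p = 0.0572) or untreated 8 (0.0621).

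Ldha, the lactate dehydrogenase subunit of glycolytic tissue, had 1227, 1147 and 1241 CPM with the PD-L1 antibody, against 418.4, 386.5 and 424.7 CPM with the isotype antibody and 410.1, 422.9 and 419.8 CPM in untreated wells. The 6 libraries of the other groups lay within a narrow band, and the rise was 1.55 (SE 0.08, adjusted p = 1.47e-07 in limma). Ldhb, the heart-type subunit, had 4.81, 3.76 and 4.38 CPM with the PD-L1 antibody, against 5.54, 7.30 and 4.62 CPM with the isotype antibody and 6.08, 5.61 and 6.99 CPM in untreated wells. Its log2 fold change of -0.34 against the isotype antibody did not pass (adjusted p = 0.113), but did without isotype antibody 6 (0.0496) and with totals in place of TMM scaling (0.0268). Against untreated wells it passed narrowly (log2 fold change -0.44, adjusted p = 0.042) and did not without any 1 of PD-L1 antibody 1, 2 or 3, isotype antibody 4 or untreated 7, 8 or 9 (adjusted p 0.0509 to 0.142).

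Pyruvate dehydrogenase kinases switch pyruvate dehydrogenase off by phosphorylation, and the 2 kinases among the members moved in opposite directions. Pdk1 had 53.6, 49.9 and 54.2 CPM with the PD-L1 antibody, against 25.7, 27.8 and 28.5 CPM with the isotype antibody and 23.5, 30.6 and 29.5 CPM in untreated wells (log2 fold change 0.92 over the isotype antibody, SE 0.10). Pdk2 had 6.75, 7.51 and 8.84 CPM with the PD-L1 antibody, against 17.3, 15.8 and 13.3 CPM with the isotype antibody and 15.6, 19.3 and 19.4 CPM in untreated wells (log2 fold change -0.92, SE 0.14, against the isotype antibody, and -1.14 against untreated wells). Neither gene's PD-L1 antibody range touched the others, and the adjusted p against the isotype antibody were 5.02e-05 and 0.000354 in limma. Pdk1 made up 72.8 to 77.6% of their summed transcript per kb with the PD-L1 antibody. The share was 39.4 to 48.2% for isotype antibody and 39.8 to 40.9% for untreated wells. That sum leaves out Pdk3, another pyruvate dehydrogenase kinase, chosen after its values were seen. Pdk3 averaged 11.17, 10.66 and 8.97 CPM per kb in those groups, above Pdk1 (10.14, 5.27 and 5.38). Pdk3 was not called against isotype antibody or untreated wells (log2 fold changes 0.07 and 0.30). Pdha1, the catalytic alpha subunit of pyruvate dehydrogenase itself, had 59.7 to 66.8 CPM with the PD-L1 antibody, 55.1 to 56.6 with the isotype antibody and 50.5 to 57.0 in untreated wells. It did not pass against the isotype antibody (0.18, adjusted p = 0.0876), where it passed without untreated 7 (0.0406). Against untreated wells it passed (0.22, adjusted p = 0.0388), but only PD-L1 antibody 3 could be left out of the fit without losing that call (adjusted p 0.0504 to 0.128 without any other library).

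The oxidative arm of the pentose phosphate pathway was mixed. G6pdx, glucose-6-phosphate dehydrogenase, the rate-limiting entry enzyme (chrX:74409486-74429161, - strand), had 249.4, 220.6 and 241.2 CPM with the PD-L1 antibody, against 192.9, 210.5 and 208.2 CPM with the isotype antibody and 189.0, 162.2 and 160.8 CPM in untreated wells. The PD-L1 antibody libraries were the highest, but the log2 fold change of 0.22 over the isotype antibody (95% interval 0.03 to 0.41) did not pass (adjusted p = 0.0744 in limma; 0.0234 without untreated 7), while 0.47 over untreated wells did (adjusted p = 0.00126). Pgd, 6-phosphogluconate dehydrogenase, the second NADPH-forming enzyme, had 409.9, 362.5 and 418.5 CPM with the PD-L1 antibody, against 262.6, 289.3 and 290.6 CPM with the isotype antibody and 277.3, 242.5 and 228.6 CPM in untreated wells. Of the 6 pentose phosphate members it alone was called higher against both (log2 fold change 0.50, SE 0.10, adjusted p = 0.00188 over the isotype antibody; 0.67 over untreated wells). Pgls, the lactonase that acts between these dehydrogenases, had 48.4, 39.4 and 52.9 CPM with the PD-L1 antibody, against 59.9, 73.0 and 57.4 CPM with the isotype antibody and 73.2, 79.9 and 73.4 CPM in untreated wells. It was lowest with the PD-L1 antibody in every library; the log2 fold change was -0.43 (adjusted p = 0.0155) against the isotype antibody and -0.69 (adjusted p = 0.000902) against untreated wells, and the comparison with the isotype antibody did not pass without PD-L1 antibody 2 (0.0657), the lane 4 library, or isotype antibody 5 (0.0707).

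None of the 3 non-oxidative members, Tkt, Taldo1 and Rpia, was called higher. Tkt, transketolase, which moves pairs of carbons between sugar phosphates, had 245.3, 204.7 and 234.6 CPM with the PD-L1 antibody, against 238.5, 266.7 and 258.0 CPM with the isotype antibody and 257.6, 221.0 and 209.0 CPM in untreated wells. These ranges overlapped, and the log2 fold change of -0.16 (95% interval -0.38 to 0.06) against the isotype antibody did not pass. Taldo1, transaldolase, had 265.6, 225.2 and 249.1 CPM with the PD-L1 antibody, against 298.6, 326.0 and 325.6 CPM with the isotype antibody and 319.3, 248.6 and 257.3 CPM in untreated wells. It was lower than with the isotype antibody (log2 fold change -0.36, SE 0.11, adjusted p = 0.0195 in limma), a call lost without PD-L1 antibody 2 (0.0843), isotype antibody 5 (0.0666) or isotype antibody 6 (0.0639), and not called against untreated wells (-0.15). Rpia, ribose-5-phosphate isomerase, had 10.5 to 12.8 CPM with the PD-L1 antibody, 9.64 to 11.6 with the isotype antibody and 9.53 to 12.2 in untreated wells, with no call (log2 fold change 0.05, 95% interval -0.23 to 0.33).

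Summed per kb, the 16 glycolytic enzymes came to 5619, 5119 and 5704 CPM per kb with the PD-L1 antibody, against 2000, 2045 and 2136 with the isotype antibody and 2193, 1842 and 1823 in untreated wells, 2.66-fold and 2.81-fold higher in the means. The 6 pentose phosphate enzymes came to 616.6, 531.8 and 606.3 CPM per kb with the PD-L1 antibody, against 561.0, 621.6 and 603.8 with the isotype antibody and 599.1, 511.4 and 503.5 in untreated wells, and these ranges overlapped. Set against the glycolytic sum, the pentose phosphate sum was 10.7 ± 0.29% with the PD-L1 antibody, against 28.9 ± 1.30% with the isotype antibody and 27.6 ± 0.23% for untreated wells (SD, n = 3 each). This percentage is taken within a library and does not depend on scaling. Within the pentose phosphate sum the oxidative arm was 1.20-fold the isotype antibody level and the non-oxidative arm 0.81-fold. Pkm alone made up much of the glycolytic sum, with 1789 CPM per kb with the PD-L1 antibody, against 630.9 with the isotype antibody and 591.8 for untreated wells.

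**Figure D3:**
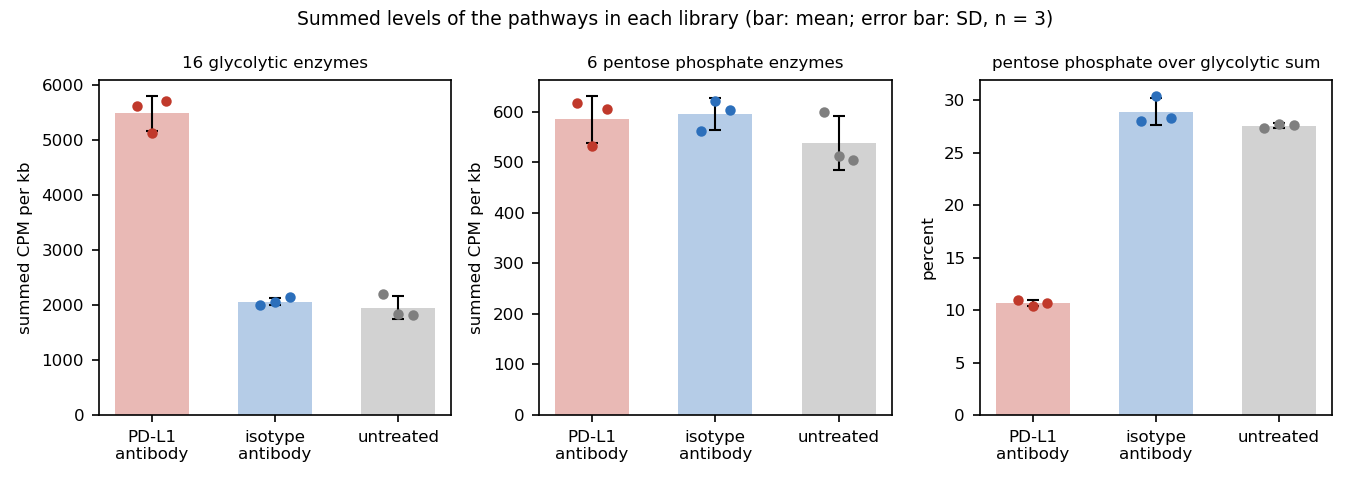
Summed CPM per kb of the 16 glycolytic enzymes (left) and the 6 pentose phosphate enzymes (middle), and the second sum as a percentage of the first (right), in PD-L1 antibody, isotype antibody and untreated libraries; points are libraries, bars means and error bars SD (n = 3). The percentage is 10.39 to 10.97 with the PD-L1 antibody, 28.1 to 30.4 with the isotype antibody and 27.3 to 27.8 in untreated wells.

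Both glycogen genes among the members rose. Gys1, glycogen synthase, had 69.9, 61.4 and 78.3 CPM with the PD-L1 antibody, against 19.0, 18.4 and 17.6 CPM with the isotype antibody and 18.0, 15.8 and 15.3 CPM in untreated wells. Gys1 thus rose by 1.87 (SE 0.10, adjusted p = 3.09e-07 in limma) over the isotype antibody. Gbe1, the branching enzyme, had 14.0, 16.7 and 16.8 CPM with the PD-L1 antibody, against 8.82, 8.49 and 9.72 CPM with the isotype antibody and 8.29, 9.16 and 9.90 CPM in untreated wells (log2 fold change 0.75, SE 0.11, adjusted p = 0.000446). In both genes every PD-L1 antibody library was above every other library.

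Among the members the make-up of several steps shifted. Slc2a1 took 46.4 ± 2.24% of the summed level of the 3 transporters with the PD-L1 antibody, against 19.7 ± 1.37% with the isotype antibody and 21.4 ± 4.30% for untreated wells (SD, n = 3 each), and Slc2a3 took 1.99, 9.03 and 7.38% in those groups. Pfkfb3 took 90.3% of the Pfkfb3 and Pfkfb4 sum with the PD-L1 antibody, against 71.0% with the isotype antibody and 65.8% for untreated wells. Slc16a3 took 97.8% of the Slc16a1 and Slc16a3 sum with the PD-L1 antibody, against 89.1% for isotype antibody and 89.7% for untreated wells. These shares hold for the pair alone. The sum leaves out Slc16a7, the carrier MCT2, which averaged 6.69, 10.81 and 11.58 CPM per kb in those groups. Slc16a1 averaged less (3.7, 3.0 and 2.7) and Slc16a3 more (168.6, 24.6 and 23.9). Ldha held 97.7% or more of its pair in every library.

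**Figure D4:**
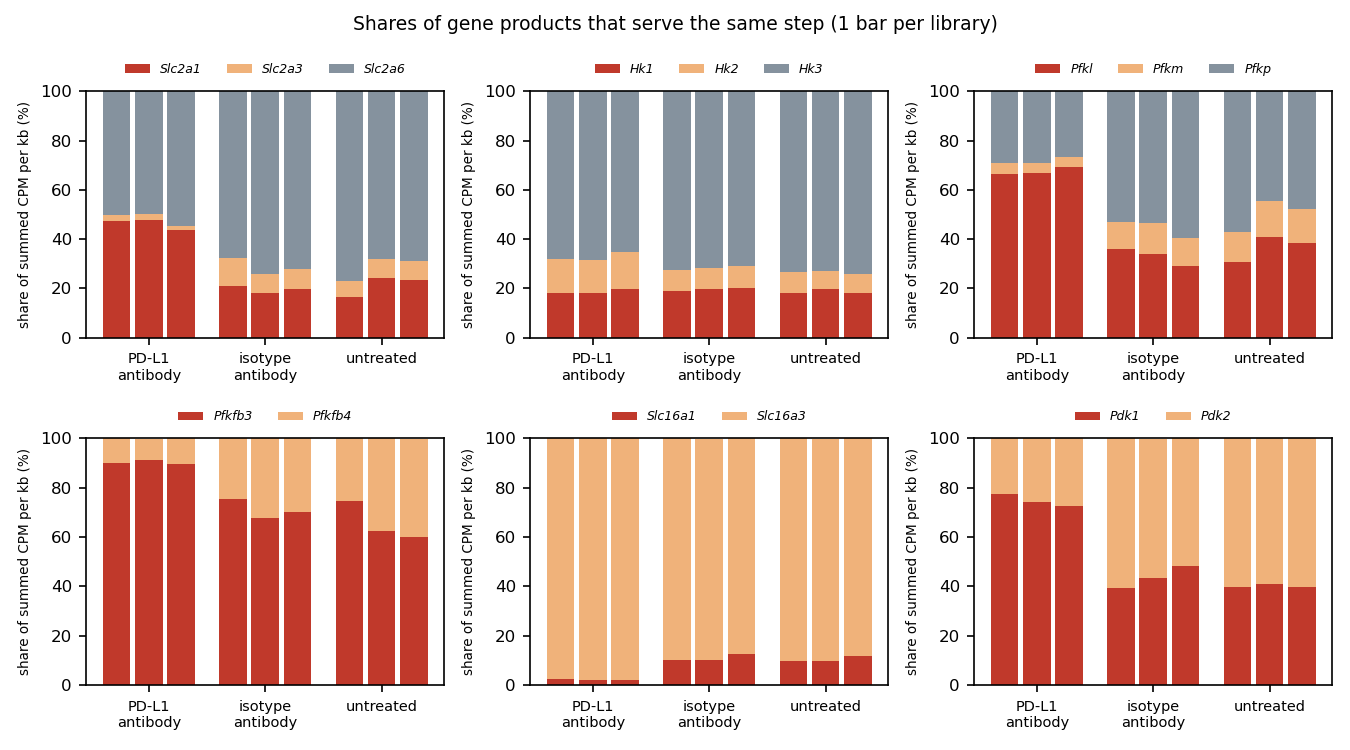
Shares of summed CPM per kb taken by each member in 6 families, with genes outside the members left out of the sums. Each library is 1 stacked bar, with PD-L1 antibody, isotype antibody and untreated libraries from left to right. The red part of 4 families, Slc2a1, Pfkl, Pfkfb3 and Pdk1, is larger in the PD-L1 antibody bars, while Hk1 keeps 18.0 to 20.3% in all 9 libraries.

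Because many members rose together, the windows before their listed starts are shown for the 3 largest rises (Slc2a1, Pfkl and Slc16a3). Beside them are the 3 pentose phosphate genes with the highest untreated level per kb (Taldo1, Pgd and Tkt), none of which rose by more than 0.67. RefSeq windows (GRCm38.p6) were found for 35 of the 36 members, 31 of them starting within 10 bases of the listed transcript start. Each sequence is the 250 bases before the start that RefSeq gives, in the direction of the gene. In the genes shown that is the listed start, except in Pfkl, where it lies 11 bases away. Capitals mark ACGTG and GCGTG, the core letters of the site that hypoxia-inducible factors are known to bind, on either strand.
Slc2a1 (chr4:119108495-119108744, + strand): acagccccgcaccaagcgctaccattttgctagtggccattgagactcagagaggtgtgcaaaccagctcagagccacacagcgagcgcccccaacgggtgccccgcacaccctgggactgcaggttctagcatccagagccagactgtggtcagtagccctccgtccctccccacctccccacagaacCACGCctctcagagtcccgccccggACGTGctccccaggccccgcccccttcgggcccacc
Pfkl (chr10:78009808-78010057, - strand): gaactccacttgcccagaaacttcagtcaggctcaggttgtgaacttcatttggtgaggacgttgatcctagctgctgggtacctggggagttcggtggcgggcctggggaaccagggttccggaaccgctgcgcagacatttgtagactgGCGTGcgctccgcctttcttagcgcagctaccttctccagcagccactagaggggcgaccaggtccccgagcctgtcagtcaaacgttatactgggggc
Slc16a3 (chr11:120948817-120949066, + strand): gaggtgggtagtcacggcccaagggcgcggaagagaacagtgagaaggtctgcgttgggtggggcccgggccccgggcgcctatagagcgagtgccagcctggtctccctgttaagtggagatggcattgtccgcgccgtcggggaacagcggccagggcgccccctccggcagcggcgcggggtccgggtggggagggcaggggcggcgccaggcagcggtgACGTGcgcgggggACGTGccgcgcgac
Taldo1 (chr7:141391910-141392159, + strand): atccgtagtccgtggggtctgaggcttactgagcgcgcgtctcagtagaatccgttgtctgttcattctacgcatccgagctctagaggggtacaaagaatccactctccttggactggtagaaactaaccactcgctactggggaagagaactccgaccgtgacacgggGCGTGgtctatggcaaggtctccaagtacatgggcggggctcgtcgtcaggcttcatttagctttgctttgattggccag
Pgd (chr4:149166083-149166332, - strand): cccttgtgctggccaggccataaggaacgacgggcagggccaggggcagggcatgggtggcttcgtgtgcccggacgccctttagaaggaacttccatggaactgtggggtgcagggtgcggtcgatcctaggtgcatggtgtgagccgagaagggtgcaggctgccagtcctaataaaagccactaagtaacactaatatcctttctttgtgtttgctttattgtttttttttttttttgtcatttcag
Tkt (chr14:30548881-30549130, + strand): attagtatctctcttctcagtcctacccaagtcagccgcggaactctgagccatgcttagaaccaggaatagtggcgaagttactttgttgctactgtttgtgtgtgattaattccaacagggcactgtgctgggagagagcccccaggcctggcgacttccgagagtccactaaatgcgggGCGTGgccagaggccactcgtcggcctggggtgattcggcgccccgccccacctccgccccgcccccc
Pgd has 2 windows, and the window shown ends in a run of t followed by cag, letters like those where an intron ends. Whether it acts as a promoter was not tested, so its lack of both motifs may not hold for the Pgd promoter. The letters occurred in windows of both kinds of gene. ACGTG was found in Slc2a1 and at 2 places in Slc16a3 and in no pentose phosphate window, and GCGTG in Slc2a1, Pfkl, Taldo1 and Tkt. Of the 35 members' windows 34.3% held ACGTG and 60.0% GCGTG on either strand, against 16.6 and 28.2% of all 32851 promoter windows of that length, and 80.0% against 38.6% held 1 or both. Members' windows also had a higher median GC content, 61.2% against 52.4%. Among windows of members called higher over the isotype antibody 15 of 21 (71.4%) held either motif, and among the other members' windows 13 of 14 (92.9%). Singly the motifs went opposite ways. ACGTG was in 9 of 21 (42.9%) and 3 of 14 (21.4%), and GCGTG in 9 of 21 (42.9%) and 12 of 14 (85.7%). CACGTG, which contains ACGTG and is bound by MYC family factors, was in 11.4% of the members' and 6.0% of all windows, and GGGCGG, the core of Sp1 sites, in 65.7 and 32.7%. A match of letters is a description and not evidence of binding.

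Genes around the pathways, in lists chosen along with the members, moved in both directions. Of 14 tested other genes of glycolysis and gluconeogenesis 2 were called higher and 4 lower than with the isotype antibody, where 18.2% of all genes were called in each direction (median log2 fold change -0.19). The risers were Gpd2, the mitochondrial glycerol-3-phosphate dehydrogenase (64.2, 67.2 and 69.7 CPM with the PD-L1 antibody, against 26.96, 25.73 and 30.35 CPM with the isotype antibody; log2 fold change 1.25, SE 0.09), and Tigar, a phosphatase that removes fructose-2,6-bisphosphate (0.45, adjusted p = 0.015 in limma). Gpd1l, a cytosolic relative of glycerol-3-phosphate dehydrogenase, and Pck2, the mitochondrial phosphoenolpyruvate carboxykinase, fell by 0.83 and 0.76; Eno3 and Galm, galactose mutarotase, named because the count is small, fell by 0.86 and 0.54. Pklr, Fbp1 and Pck1 did not pass the filter on low values. Of the 3 other hexose carriers tested Slc2a8 fell by 0.55, and Slc5a2 and Slc2a9 were not called.

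In the other pyruvate and lactate genes 3 were higher and 3 lower of 17, against 18.2% of all genes in each direction. Me1, the cytosolic malic enzyme, another source of NADPH, had 9.96, 11.3 and 11.4 CPM with the PD-L1 antibody, against 2.83, 4.01 and 4.94 CPM with the isotype antibody and 3.92, 2.13 and 2.26 CPM in untreated wells (log2 fold change 1.29 over the isotype antibody, SE 0.20). Dlat, a pyruvate dehydrogenase subunit, and Bsg, basigin, the chaperone of MCT4, rose by 0.41 and 0.39. Slc16a7, the carrier MCT2, fell by 0.66, Pdp1, a phosphatase that switches pyruvate dehydrogenase on, by 0.58 and Pdk4, another pyruvate dehydrogenase kinase, by 0.49, the last at under 1 CPM in every library; these are named because the count is small.

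Of the further pentose phosphate and ribose genes 5 were higher and 2 lower of 9 tested, where 18.2% of all genes were called in each direction. A gene among the 5, listed as Pgm2 (NM_028132), is the gene that RefSeq now names Pgm1, the phosphoglucomutase that links glucose-1-phosphate of glycogen to glucose-6-phosphate, so by its role it belongs with the glycogen genes; its paralog listed as Pgm1, now named Pgm2, was not called (-0.19). The riser had 78.8, 72.9 and 74.7 CPM with the PD-L1 antibody, against 30.5, 27.5 and 29.4 CPM with the isotype antibody and 30.6, 33.8 and 31.5 CPM in untreated wells. Dera, deoxyribose-phosphate aldolase, had 54.9, 64.6 and 48.7 CPM with the PD-L1 antibody, against 26.2, 22.2 and 27.2 CPM with the isotype antibody and 26.96, 27.44 and 27.15 CPM in untreated wells. For both genes the PD-L1 antibody range stood clear of the other groups, with log2 fold changes of 1.34 and 1.12 over the isotype antibody. Rpe, ribulose-phosphate epimerase of the non-oxidative arm, chosen after its values were seen, had 43.5, 43.8 and 47.3 CPM with the PD-L1 antibody, against 33.0, 29.4 and 29.3 CPM with the isotype antibody and 26.8, 32.2 and 38.1 CPM in untreated wells, and was called higher against both (0.54, adjusted p = 0.004, and 0.47, adjusted p = 0.00753, in limma). H6pd, which carries out the first oxidative steps inside the endoplasmic reticulum, rose by 0.54 over the isotype antibody (adjusted p = 0.000427 in limma) and 0.59 over untreated wells. Idnk, the remaining riser, rose by 0.59 over the isotype antibody (adjusted p = 0.000719 in limma) and 0.47 over untreated wells. The genes that fell were Prps2, a phosphoribosyl pyrophosphate synthetase (-0.58), and Shpk, sedoheptulokinase (-0.44). Idnk, Prps2 and Shpk are named because the count is small. Of 16 other glycogen genes 2 were higher and 4 lower, beside the same 18.2% of all genes in each direction. Gyg, glycogenin, the primer of glycogen synthesis, fell by 1.35, Phka2, a phosphorylase kinase subunit, fell by 0.96, and Ugp2, which makes UDP-glucose, rose by 0.53. Of 7 hexosamine genes 1 was higher (Gfpt1, the entry enzyme, by 0.45) and 1 lower (Gnpda1, which runs the reverse step, by 0.56), again beside 18.2% of all genes in each direction. Ogt was not called.

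Of 14 tested controls of glucose use 6 were higher and 3 lower than with the isotype antibody, where 18.2% of all genes were called in each direction. Hif1a, a hypoxia-inducible factor subunit, had 370.2, 390.6 and 404.3 CPM with the PD-L1 antibody. It had 77.4, 76.6 and 74.6 CPM with the isotype antibody and 71.8, 85.2 and 91.9 CPM in untreated wells. Its log2 fold change was 2.33 (SE 0.09, adjusted p = 2.69e-08 in limma) over the isotype antibody. The part of Hif1a in the changes of the members was not tested. Egln3, an oxygen sensor that marks HIF for destruction and is itself a HIF target, rose by 2.47 (SE 0.14). Txnip, which encodes a protein that removes glucose transporters from the surface, had 155.5, 168.4 and 191.3 CPM with the PD-L1 antibody, against 223.2, 244.9 and 221.8 CPM with the isotype antibody and 184.5, 269.3 and 252.8 CPM in untreated wells (log2 fold change -0.42, adjusted p = 0.0279). Bach1, a repressor of haem and redox genes, fell by 0.45.

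**Figure D5:**
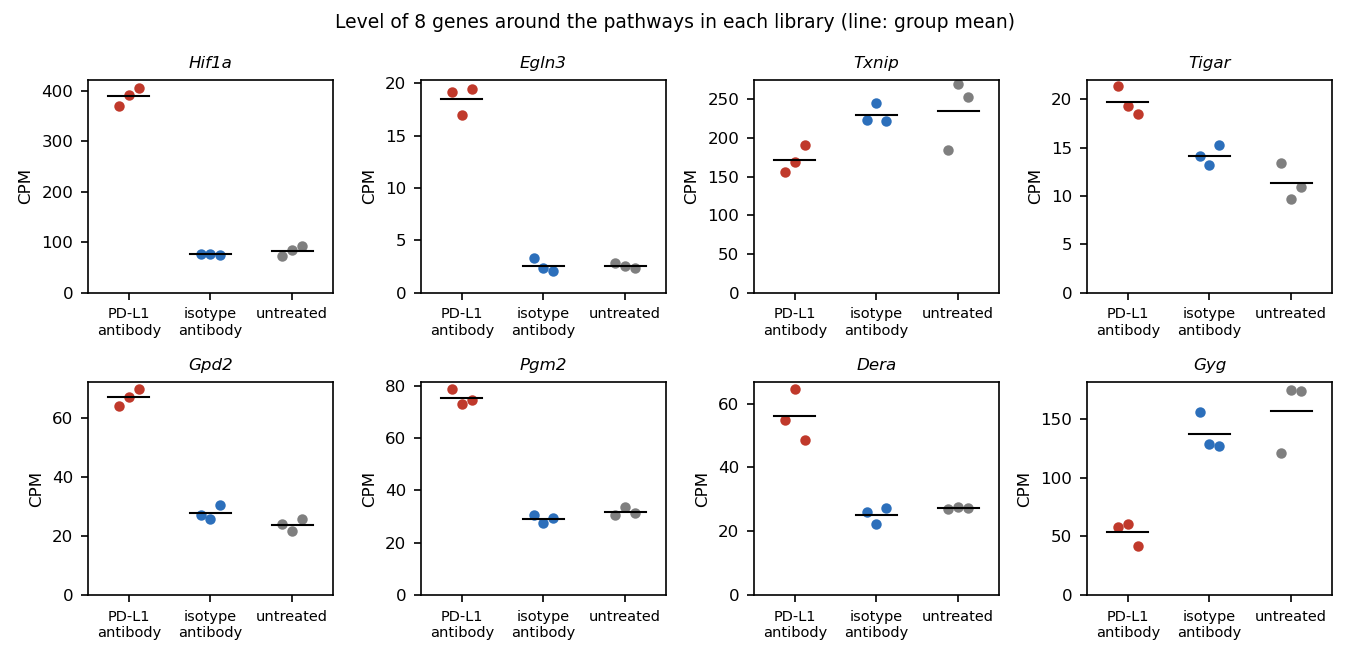
CPM of 8 genes around the pathways (Hif1a, Egln3, Txnip, Tigar, Gpd2, the gene listed as Pgm2, Dera and Gyg) in PD-L1 antibody, isotype antibody and untreated libraries from left to right; points are libraries and lines group means. In 6 panels the PD-L1 antibody libraries lie above all others, in that of Gyg below all others, and in that of Txnip they overlap the library untreated 7.

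Between isotype antibody and untreated wells, which asks what antibody protein alone did, no member was called by limma, where 0.00728% of all genes (1 gene) were; 2 members and 1748 genes had an unadjusted p under 0.05. On the same values edgeR called 0 genes, limma-voom 0 and DESeq2 13, with no member among them. The members' log2 fold changes ran from -0.25 (Pgls) to 0.38 (Slc2a3). That count rests on untreated 7, which lay nearer to the isotype antibody libraries in several members: Hk2 had 86.4 CPM there against 51.2 and 58.6 CPM in untreated 8 and 9, and Pfkp 72.71 CPM against 50.01 and 51.92 CPM. Without it, 2295 of 13988 genes tested were called (1337 higher and 958 lower). Of the 36 members 6 were called, a share similar to that of all genes. All 6 were higher with the isotype antibody: Hk2 (log2 fold change 0.42, adjusted p = 0.0097 in limma), Pfkp (0.44, 0.00718), Pfkfb3 (0.41, 0.0481), Slc2a3 (0.51, 0.0132), G6pdx (0.33, 0.0133) and Taldo1 (0.32, 0.0226).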

How the data were processed

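RNA selected with oligo(dT) from 9 mouse macrophage samples was sequenced as paired reads of 150 bases, per the labels' protocols. Partek and STAR are named in the submitters' processing notes; versions, roles and a genome build are not given in the sources used here, and transcript positions matched GRCm38. The deposited files list RefSeq transcripts per library. The deposited read counts cover each transcript's whole span, introns included, and isoforms repeat them. The deposited average coverage is a signal per exonic base, the deposited total exon length is in bases, and per the file headers the percent of exonic bases covered is given (70.7 to 100 for members).

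Exonic read equivalents (coverage times exon length over 150) of 1 transcript per symbol, the one with most over all libraries, were filtered (edgeR filterByExpr), scaled by TMM (factors 0.919 to 0.932 for the PD-L1 antibody, 1.009 to 1.063 for the others) and fitted as log2(CPM + 1) in limma (trended variance, a mean for each group). They were 68.0 to 70.9% of the reads over the spans of those transcripts. Tests were two-sided, with Benjamini-Hochberg adjustment over all genes and a threshold of 0.05. Reads carry no molecular identifiers and may repeat a molecule, and depth limits the lowest genes most. Members and lists were chosen with earlier results of these data known. All members are named; of each other list the 3 tested genes with the lowest p between the antibodies are, with Hif1a, Txnip and Tigar. Oga, Rpel1, Trac and Ighm were not listed in the data under those symbols and so could not be used. Motifs, shared 100-base stretches and the Pkm exon pair were examined after the values were seen. Alternatives were other scalings, filters, pseudocounts, tools (edgeR, DESeq2, limma-voom), transcripts and thresholds, the groups compared alone, and each library left out in turn. On simulated data with known changes the fit was tested first. Software was R 4.3.3, limma 3.58.1, edgeR 4.0.16, DESeq2 1.42.0, Python 3.11.15, pandas 2.3.3, numpy 2.4.6 and matplotlib 3.10.9.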

Additional observations from a re-analysis of the deposited data

How the results depend on the processing

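The counts of members called higher in both PD-L1 antibody comparisons and lower against untreated wells stayed within 1.5 times under every alternative run, and no member reversed a call. Members lower than with the isotype antibody numbered 5, but 9 with totals in place of TMM scaling, 2 at a threshold of 0.01, and 2 to 6 when 1 library was left out (2 without PD-L1 antibody 2 or isotype antibody 5). With totals 4143 of all 13741 tested genes were also lower than with the isotype antibody. At a threshold of 0.01 the calls among all genes fell to 3228 between the antibodies and 3821 against untreated wells. Against untreated wells 32.2% of calls were higher with totals and 41.2% with upper-quartile scaling (7 members lower under either), and 51.7% as reported. Of all 13741 tested genes 4088 were lower with totals and 3433 with upper-quartile scaling. For the isotype antibody over untreated wells the 1 gene called became 2 with totals, 2 with edgeR on the reads over spans, 13 with DESeq2, and 0 at a threshold of 0.01, with edgeR or limma-voom on exonic read equivalents and with only those groups fitted. It ran from 0 to 2295 genes and 0 to 6 members when 1 library was left out. The highest values came without untreated 7 (2295 of 13988 genes tested and 6 of 36 members). Reads over spans in place of exonic coverage put the pentose phosphate sum at 11.8% of the glycolytic sum for the PD-L1 antibody, 31.9% for the isotype antibody and 30.2% for untreated wells. The cause of these changes was not tested. No paired analysis was possible because the groups share no replicate numbers.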
